A study of Mus musculus with 2 samples.

Results

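Heat shock proteins and their J-domain partners were examined in differentiated C2C12 cells, a mouse myoblast line that fuses into myotubes when serum is lowered. Members were the probe sets (groups of short array probes that read 1 transcript region) with 1 gene symbol beginning with Hsp or naming a J-domain gene of class A, B or C, plus Cryab, Bag3 and the heat shock factor Hsf2. The endoplasmic reticulum chaperones Hspa5, Hsp90b1, Dnajb9, Dnajb11 and Dnajc3, and the proteoglycan Hspg2, were left out. This gave 168 of 45101 probe sets and 70 of 18193 genes. The rule also covers Hsf1 and Hsp90ab1, which were not analysed here because no probe set in use carried either symbol alone. The rule itself uses symbols and no measured value, but it was set with earlier results of these data known.

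One array held cells with a short hairpin against Lrrfip1 (labelled shLrrfip1a) and the other held cells with a control hairpin (labelled shLCUI). Both cultures were C2C12 cells expanded in medium with 10% FBS and then kept in 2% horse serum for 5 days of differentiation, and both arrays read biotin-labelled cRNA from 6 ug of total RNA. Whether either culture was a clone or a pool is not given in the sources used here. With 1 array per group no difference has a replicate check, so no p-value or error between cultures is given and differences are described by size alone. In a bulk culture, fewer cells of a type and less RNA per cell cannot be told apart.

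Chaperones of the HSP70 family bind unfolded stretches of other proteins in cycles of ATP hydrolysis. J-domain proteins deliver the clients and stimulate the hydrolysis, while HSP110 proteins and other exchange factors reset the cycle. HSP90 acts later on clients such as kinases and steroid receptors, and in muscle it also takes part in myosin folding. Small heat shock proteins need no ATP. They hold partly unfolded proteins until HSP70 takes them over, and several are abundant in muscle, where they sit near the Z-disc and on filaments. Heat shock factors switch on many of these genes through heat shock elements, inverted repeats of a GAA unit in the promoter.

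Promoters were taken from RefSeq (build GRCm38.p6) as windows from 250 bases before to 50 bases after each annotated start. Such a window was found for 56 of the 70 genes, some with several starts, 73 windows in all. The inverted repeat GAANNTTC, which reads the same on both strands, was present in 17 of the 73 windows (23.3%), against 7.86% of 32851 promoter windows of all genes. The repeat in the other order, TTCNNGAA, was in 8 of the 73 (11.0%) against 8.52% of all. A run of 3 alternating units spaced in the same way, on either strand, contains both repeats and was in 6 windows (8.22%) against 0.603% of all. The windows with it belong to Hsph1, Dnajb6, Hspd1 and Hspe1. Overlapping windows of alternative starts are counted separately in these shares, for members and for all genes. The Dnajb6 windows with the run hold the same element, as do those of Hsph1. By gene, GAANNTTC was in 15 of the 56, TTCNNGAA in 6 and the run in 4. The stretches below are the 130 bases before the start of the 8 genes above the level filter that hold GAANNTTC there. They are shown because the element is the best known control sequence of this family. Capitals mark GAANNTTC and any TTCNNGAA in the stretch. For Dnajb6 the first of its annotated starts is shown.
Hspa1a, chr17:34972157-34972286, minus strand: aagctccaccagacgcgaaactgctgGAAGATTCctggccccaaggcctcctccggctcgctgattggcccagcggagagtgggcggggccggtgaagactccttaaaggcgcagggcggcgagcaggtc
Hspa1b, chr17:34959239-34959368, minus strand: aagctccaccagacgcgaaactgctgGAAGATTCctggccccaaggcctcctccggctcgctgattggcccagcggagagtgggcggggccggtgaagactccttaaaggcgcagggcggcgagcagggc
Hspe1, chr1:55088018-55088147, plus strand: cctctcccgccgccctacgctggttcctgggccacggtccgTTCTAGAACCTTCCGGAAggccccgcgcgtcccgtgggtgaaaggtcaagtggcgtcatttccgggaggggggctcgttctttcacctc
Dnaja1, chr4:40722338-40722467, plus strand: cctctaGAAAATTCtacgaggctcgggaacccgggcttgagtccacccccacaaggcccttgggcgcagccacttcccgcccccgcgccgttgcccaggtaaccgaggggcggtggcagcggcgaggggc
Dnaja4, chr9:54699429-54699558, plus strand: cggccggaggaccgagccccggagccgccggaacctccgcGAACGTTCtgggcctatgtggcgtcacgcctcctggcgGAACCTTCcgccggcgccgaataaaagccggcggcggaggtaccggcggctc
Dnajb6, chr5:29735768-29735897, plus strand: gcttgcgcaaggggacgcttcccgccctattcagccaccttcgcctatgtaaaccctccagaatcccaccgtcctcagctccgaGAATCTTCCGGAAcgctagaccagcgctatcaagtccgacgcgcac
Hspb1, chr5:135887789-135887918, plus strand: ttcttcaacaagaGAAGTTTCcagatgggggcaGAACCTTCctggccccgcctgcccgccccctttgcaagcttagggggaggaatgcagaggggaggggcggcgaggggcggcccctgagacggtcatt
Hspb6, chr7:30553171-30553300, plus strand: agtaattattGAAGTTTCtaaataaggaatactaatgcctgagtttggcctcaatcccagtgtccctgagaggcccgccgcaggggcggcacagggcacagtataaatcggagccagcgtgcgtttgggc

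Hspa1a and Hspa1b, neighbouring genes for the stress-inducible HSP70, were identical at 129 of these 130 positions (99.2%). The element of Hspe1 is shared with Hspd1, which is transcribed away from it on the opposite strand. It spans chr1:55088059-55088076 and begins 89 bases before the Hspe1 start and 144 bases before an Hspd1 start. In Hsph1 the run of 3 units lay after the annotated start, as did the GAANNTTC of Bag3 and that of Hspb8, so those stretches are not printed. A match to these letters is a description of the sequence and does not show that a factor binds there.

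**Figure D1:**
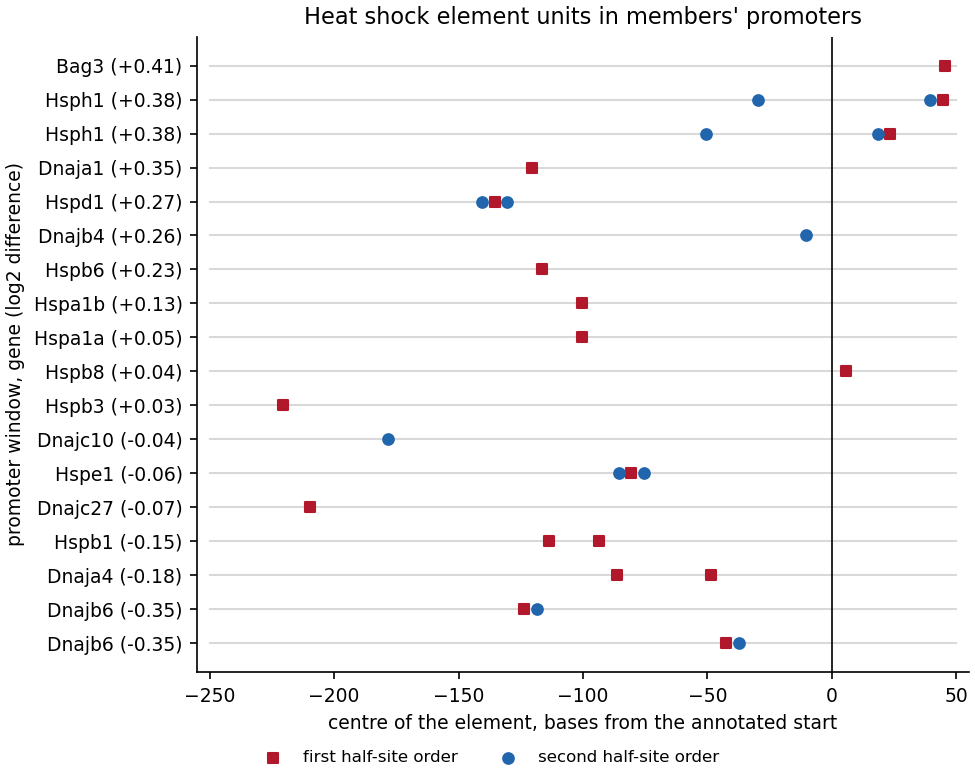
Positions of heat shock element units in the promoter windows of chaperone genes above the level filter. The x axis gives the centre of each unit in bases from the annotated start, squares mark GAANNTTC and circles TTCNNGAA, and rows are ordered by the log2 difference of the gene, shLrrfip1a minus control. Only windows that hold a unit are drawn, from Bag3 (0.41) to Dnajb6 (-0.35). Members whose windows hold none are left out, among them Dnajb1 (0.53) and Dnajc28 (-0.66). Members for which no window was found, among them Hspa8 and Hspa9, are not drawn either.

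Values are the intensities the authors deposited, on a linear scale, and each difference is log2(intensity + 16) on the shLrrfip1a array minus that on the control array, which understates the change of dim genes. The brightest probe set stands for a gene. Genes were kept if its average exceeded the median probe set, at an intensity of about 52.4, and 11448 genes of the series and 60 of the 70 members passed. Hspb7 and Dnajc28 passed through the control array alone, so both had to be lower in shLrrfip1a. The members below the filter were the heat shock factor Hsf2 (46.3 and 38.6 on the shLrrfip1a and control arrays), Hspa1l, Hspa12b, Hspb9, Dnajb3, Dnajb7, Dnajc5b, Dnajc5g, Dnajc6 and Dnajc12. Without detection calls these 10 cannot be declared absent. Intensities of different genes are not compared, because each probe set has its own response.

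The median intensities of the arrays were 53.5 for shLrrfip1a and 51.4 for the control. Lrrfip1, the targeted gene, was lower in shLrrfip1a on its 3 probe sets (375 against 531, 292 against 469 and 108 against 160; log2 differences -0.48, -0.66 and -0.51). Of 12 myotube markers 11 lay above the filter, none reached 2-fold, and their summed intensity was 22720 in shLrrfip1a and 24032 in the control. The myogenic factor Myog differed by -0.38 and the creatine kinase Ckm by 0.38. The 12 fibroblast markers summed to 40494 and 35494. Of the 11 above the filter 6 were higher and 5 lower (median 0.05), with Dcn (3.67), Fbln1 (1.73) and Mmp2 (1.17) past 2-fold and Postn (-0.47), Col1a1 (-0.42) and Pdgfra (-0.35) the lowest. Of 18 measured markers of adipocytes, bone and cartilage or blood cells, 6 lay above the filter, and the summed intensities of the lists were 808 and 605, 657 and 547, and 336 and 214. Lyz2, of the blood cell list, was past 2-fold (107 against 28.1), but it passed the filter through the shLrrfip1a array alone. Cd14 (147 against 99.1, 0.50) and the dim Ptprc (0.46) of that list were higher as well. Cd68 (-0.35) and Cd3e (-0.25) of the list were dim and lower. No marker was at 0. Their part in the chaperone values was not tested.

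No chaperone gene differed by 2-fold. None of the 60 was at least 2-fold higher and none at least 2-fold lower, against 0.664% and 0.69% of all genes above the filter. At 1.5-fold (a log2 difference of 0.58), 0 were higher, against 2.34% of all genes, and 1 was lower, against 2.46%. That gene is Dnajc28. The median difference was -0.01 over the 60 genes and 0.0043 over all 11448. Of the 60, 29 were higher (48.3%, against 50.7% of all genes) and 31 lower. With spike-in scaling 44 of the 60 were higher and the median was 0.14, while that of all genes was 0.17. As deposited, 70.0% differed by less than 0.25, against 70.4% of all genes. The chaperones thus lay about as close to the line of equal intensity as genes in general. The robust spread of their differences (a scaled median absolute deviation) was 0.28, against 0.23 for all genes.

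**Figure D2:**
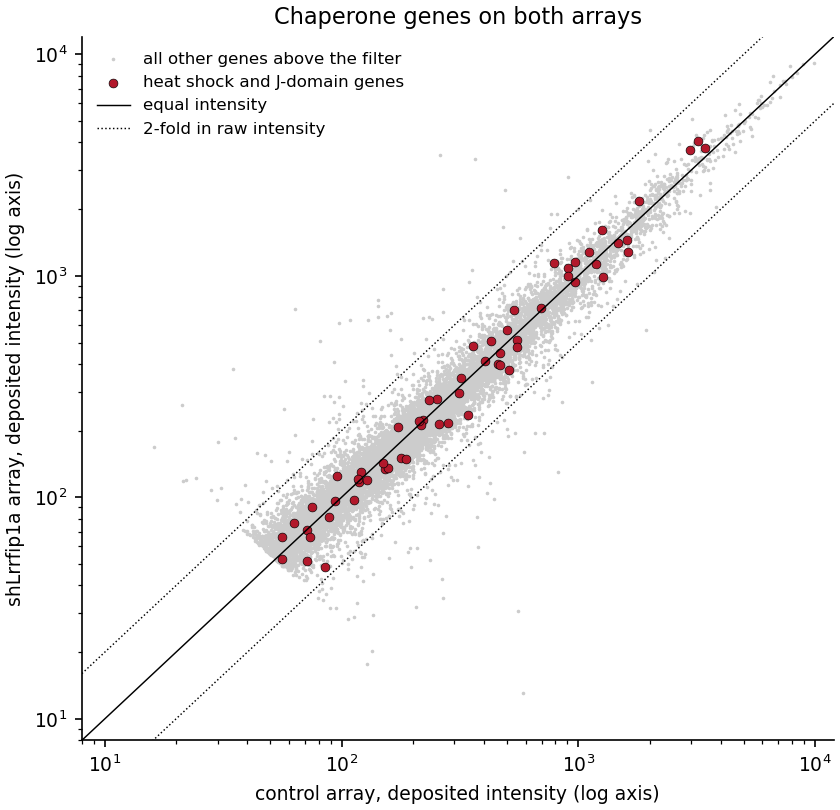
Deposited intensity of each gene above the level filter on the control array (x axis) and the shLrrfip1a array (y axis), both log axes. Red points are the 60 heat shock and J-domain genes, grey points the other genes, and dotted lines mark 2-fold. Every red point lies between the dotted lines.

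A size of 1.2-fold (a log2 difference of 0.26), chosen after the values were seen, separates the members with the largest differences. At this size 8 genes were higher and 8 lower (13.3% each), against 13.8% and 13.5% of all genes, so the shares were near the background in both directions. The higher ones were Dnajb1, Bag3, Hsph1, Dnaja1, Hspa8, Dnajc25, Dnaja2 and Hspd1. The lower ones were Dnajc28, Hspb2, Hspb11, Hspb7, Dnajc18, Dnajb6, Hspa9 and Dnajc17. Of the genes past this size, the closest to it were Hspd1 (0.27) among the higher and Dnajc17 (-0.30) among the lower. Just outside it were Dnajb4 (0.26) and Hspa4l (-0.25). Scaling the arrays to the bacterial and phage spike-in controls adds 0.17 to the median of all genes, and 22 members are then higher and 2 lower at 1.2-fold.

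**Figure D3:**
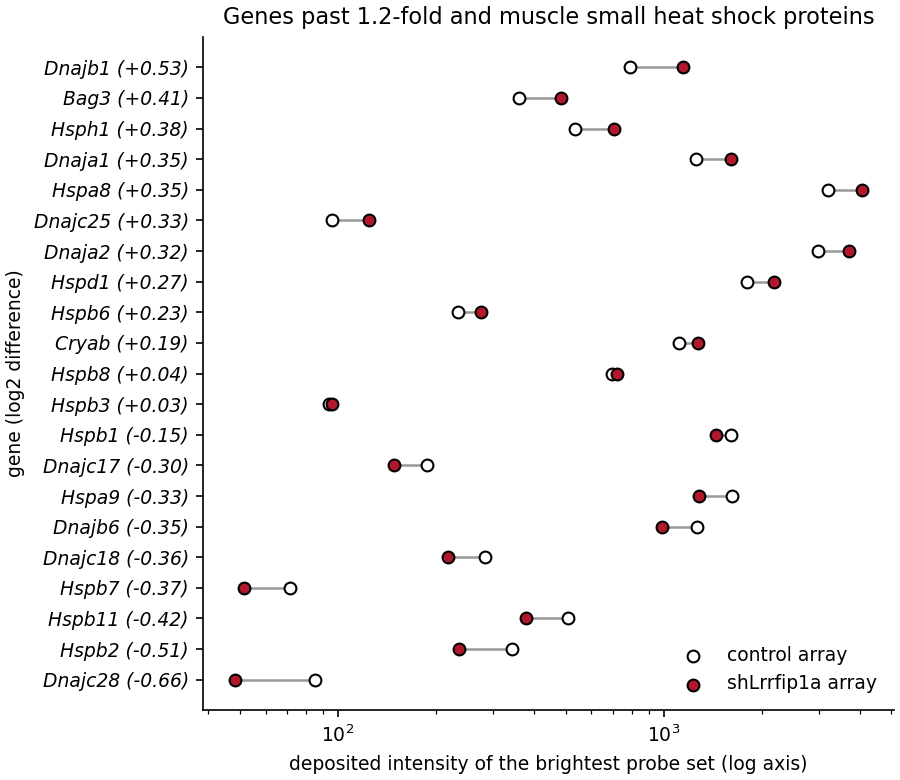
Deposited intensity of the brightest probe set on the control array (open) and the shLrrfip1a array (red), on a log axis, for the 16 genes past 1.2-fold and the other muscle small heat shock proteins. Genes are ordered by log2 difference, given in brackets, from Dnajb1 (0.53) at the top to Dnajc28 (-0.66) at the bottom.

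Among the HSP70 proteins, the constitutive cytosolic Hspa8 read 4074 in shLrrfip1a and 3193 in the control, a log2 difference of 0.35. Its other probe sets above the filter, at 3419 against 2924 and 2040 against 1644, differed by 0.22 and 0.31, so all 3 were higher in shLrrfip1a. The probe set that represents Hspa8 and the one that gave 0.22 are of a kind that can bind related transcripts. Such a probe set represents 8 members above the filter, among them Dnaja2, Hspb8 and Hspe1. Hspa9, the HSP70 of the mitochondrial matrix, went the other way, at 1286 against 1617 (-0.33). Its 4 probe sets that passed the filter were each lower, with values from -0.33 to -0.16. The stress-inducible Hspa1b read 995 against 909 (0.13), and its other probe sets gave 0.19 and 0.32. For Hspa1a the values were 220 against 212 (0.05). Because these genes are near-identical copies, signal on their probe sets may be shared between them, and neither reached 1.2-fold on its brightest probe set. The genes Hspa12a (0.24), Hspa14 (0.11), Hspa2 (-0.11) and the microsomal Hspa13 (479 against 552, -0.20, lower on 4 of 4 probe sets) complete the 8 above the filter. Of these 8 genes 5 were higher and 3 lower, with a median of 0.08. Hspa2 is higher by 0.04 with spike-in scaling.

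Hsph1, an HSP110 protein that exchanges nucleotide on HSP70, read 702 in shLrrfip1a and 535 in the control (0.38). Its other probe set, at 283 against 207 (0.42), was higher as well. Hspa4l, a relative of Hsph1, was lower on 5 of 5 probe sets, with 215 against 258 on the brightest (-0.25) and a range from -0.45 to -0.11. For Hspa4, of the same family, the probe sets did not share a direction: 1154 against 965 (0.25) on the brightest, and -0.11 and -0.07 on the others above the filter. Hspbp1, a further exchange factor of HSP70, read 143 against 150 (-0.06), and 0.10 with spike-in scaling. The family held 2 higher and 2 lower genes, and its median was 0.10, or -0.02 with the mean over probe sets. With the deposited scaling, Hsph1 and Hspa4l thus each gave 1 direction on all their probe sets, and these directions were opposite. The smallest Hspa4l difference (-0.11) is less in size than the 0.17 that spike-in scaling adds to the median of all genes.

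Hsp90aa1, the inducible cytosolic HSP90, was higher on 5 of 5 probe sets, by 0.04 to 0.17, with 3793 against 3446 on the brightest (0.14). In the mitochondrial chaperonin, the HSP60 gene Hspd1 read 2183 against 1803 (0.27) on its 1 probe set. Its co-chaperonin partner Hspe1 read 1404 against 1465 (-0.06) and 396 against 415 (-0.07). This pair shares the promoter element printed above, and the Hspe1 value turns to 0.12 with spike-in scaling.

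J-domain proteins fall into class A, closest to bacterial DnaJ, class B, with a glycine-rich stretch but no zinc finger, and class C, which shares little beyond the J domain. All 4 class A genes were above the filter. Dnaja1, a partner of Hspa8, read 1610 against 1257 (0.35), and its other probe sets read 928 against 659 (0.48) and 515 against 338 (0.58). Dnaja2, a further cytosolic partner of HSP70, was higher on 4 of 4 probe sets, with 3704 against 2973 on the brightest (0.32) and a highest value of 0.47. Mitochondrial Dnaja3 differed by 0.12 (277 against 254). Dnaja4 was the 1 lower gene of the class, at 97.7 against 113 (-0.18), with -0.06 and 0.04 on its other probe sets. The class median was 0.22, the highest of the 3 classes, over 4 genes.

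In class B, Dnajb1, the stress-inducible HSP40, had the highest difference of all members on the brightest probe set. It read 1148 in shLrrfip1a and 788 in the control (0.53), but 434 against 400 on its other probe set (0.11), so size and rank depend on the probe set. With the mean over probe sets it was at 0.32, below Dnaja1 (0.47), Dnaja2 (0.43), Bag3 (0.41), Hsph1 (0.40) and Dnajc25 (0.33). Dnajb4, a close relative that is also inducible, read 1087 against 904 (0.26), and 0.08 on a dimmer probe set. Dnajb6, a suppressor of protein aggregation whose human mutations cause a limb-girdle muscular dystrophy, was lower on 3 of 3 probe sets above the filter. Its values were 990 against 1269 (-0.35), 209 against 252 (-0.25) and 154 against 183 (-0.23). Dnajb2 was lower as well, at 151 against 179 (-0.23). The remaining class B genes, Dnajb5, Dnajb8, Dnajb12, Dnajb13 and Dnajb14, lay between -0.02 and 0.23. In all 6 of 9 class B genes were higher and 3 lower, with a median of 0.09.

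Class C had the opposite balance, with 16 of 22 genes lower, against 5648 of all 11448, and a median of -0.07. Of the 22 genes, 18 differed by less than 0.25. With spike-in scaling 9 of the 16 lower genes turn higher and the class median is 0.10, so the balance depends on the scaling. Dnajc28 had the lowest value of all members, at 48.3 in shLrrfip1a and 85.3 in the control (-0.66), but it passed the filter through the control array alone. With a pseudocount of 64 it was at -0.41, and Hspb2 was lower, at -0.44. A dimmer probe set of the same gene read 37.7 against 40.5 (-0.07). Dnajc18, a membrane-anchored protein, read 217 against 283 (-0.36), while a dimmer probe set gave 0.05. Dnajc17 was at 149 against 188 (-0.30), while its dimmer probe sets, below the filter, gave 0.03 and 0.05. The transmembrane Dnajc1 was lower on 3 of 3 probe sets above the filter, by -0.19 to -0.14. The endosomal Dnajc13 gave -0.22 on the brighter and 0.06 on the other probe set. The highest of the class were Dnajc25 (125 against 96.1, 0.33), the histone chaperone Dnajc9 (505 against 427, 0.23), Dnajc22 (0.22) and the synaptic vesicle protein gene Dnajc5, known as CSP alpha (570 against 500, 0.18). Dnajc5 had 2 higher and 3 lower probe sets. The endoplasmic reticulum disulfide reductase Dnajc10 was level on 3 of 3 probe sets, from -0.04 to -0.02.

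**Figure D4:**
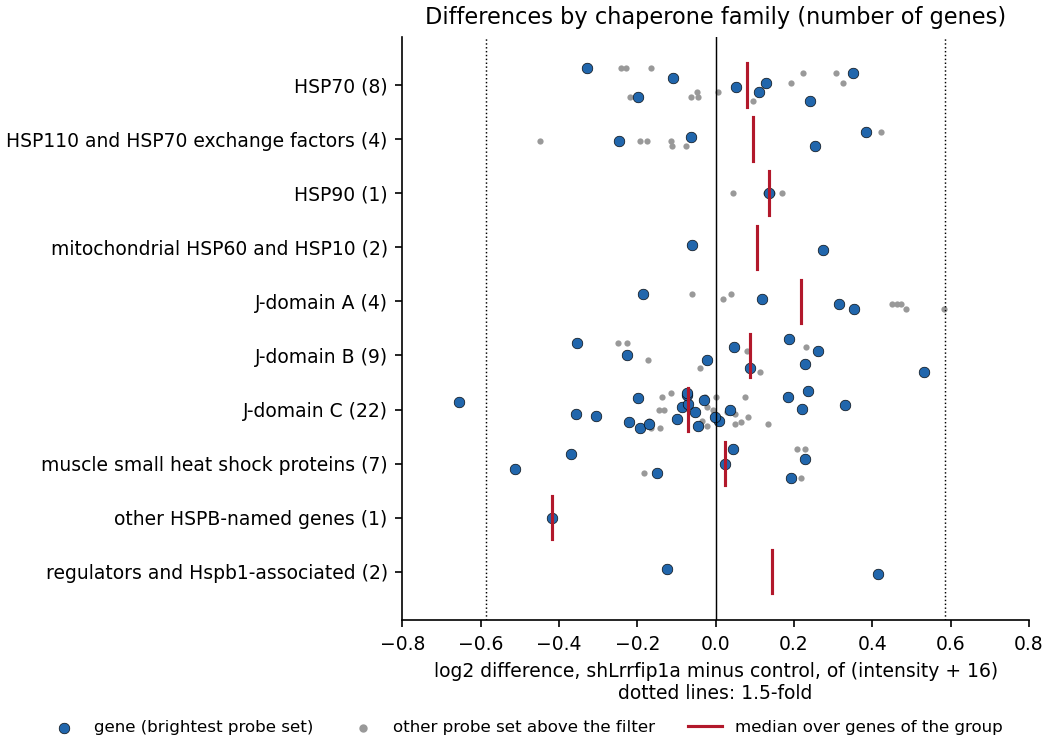
Log2 difference of each chaperone gene above the level filter, shLrrfip1a minus control, by family (y axis, with the number of genes). Large blue points are the brightest probe set of a gene, small grey points its other probe sets above the filter, and red bars the median over genes. Class C leans below 0 and class A above it, and 1 gene, Dnajc28, lies past the dotted lines at 1.5-fold.

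The small heat shock proteins of muscle were all above the filter. Of the 7, 4 were higher and 3 lower, and their median was 0.03, which turns to -0.02 with median centring, -0.0018 with quantile and -0.0021 with loess scaling. Hspb2, a muscle protein that binds the myotonic dystrophy kinase, read 236 in shLrrfip1a and 343 in the control (-0.51). Its neighbour Cryab, which encodes alpha-B crystallin, a chaperone of desmin and the Z-disc, read 1274 against 1113 (0.19) and 534 against 456 (0.22). The adjacent genes thus differed in opposite directions, with 1 probe set for Hspb2 and 2 above the filter for Cryab. Hspb7, of heart and skeletal muscle, was dim, at 51.7 against 71.4 (-0.37), and its dimmer probe sets read 24.7 against 34.9 and 12.8 against 14.6.

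Hspb1, which caps and protects actin filaments, read 1452 against 1612 (-0.15) and 1031 against 1171 (-0.18). Hspb1 becomes higher by 0.03 with spike-in scaling. Hspb6, also called HSP20, read 276 against 233 (0.23). Hspb8 was higher on 3 of 3 probe sets, at 718 against 696 (0.04), 526 against 447 (0.23) and 252 against 216 (0.21), though its brightest probe set changed sign with median centring. Hspb3, which is induced as myoblasts differentiate, read 96.1 against 94.2 (0.03), a difference that changed sign with median centring, quantile and loess scaling. Bag3 joins Hspb8 to HSP70 in the selective autophagy of damaged filamin. It read 484 in shLrrfip1a and 359 in the control (0.41) on its 1 probe set. Hspb11, which despite its name is a subunit of the intraflagellar transport machinery, read 377 against 509 (-0.42).

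Probe sets of the same gene read the same RNA, so their agreement bears on probe noise and does not stand in for replicate cultures. Of 36 members with several probe sets above the filter, 24 had all of them in 1 direction (66.7%), against 60.3% of 4853 such genes in the series. In 13 of the 24 all were higher and in 11 all were lower. Hspa8, Hsph1, Dnaja1, Dnaja2 and Hsp90aa1 were among the 13, and Hspa9, Hspa4l, Hspa13 and Dnajb6 among the 11. All counts of probe sets by direction are for the deposited scaling and were not repeated with the other scalings. Spike-in scaling adds 0.17 to the median of all genes, which is more than some of these differences.

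The members with each form of the element were compared with those without it as a description. The 14 genes above the filter with GAANNTTC in a promoter window had a median difference of 0.05, and 9 of them were higher. The 34 whose windows lacked it had a median of -0.03, and 15 were higher. Members for which no promoter window was found are in neither group, among them Hspa8, Hspa9, Hspa13, Hsp90aa1, Cryab and Hspb2. Whether these hold the element is not known here. For TTCNNGAA the median was 0.11 over 6 genes with it and 0.0033 over 42 without, and for the run of 3 units 0.11 over 4 genes and 0.0033 over 44. Of the 6 genes 3 were higher, and of the 4 genes 2 were. Among the genes whose promoters are printed above, Dnaja1 (0.35), Hspb6 (0.23), Hspa1b (0.13) and Hspa1a (0.05) were higher, and Dnajb6 (-0.35), Dnaja4 (-0.18), Hspb1 (-0.15) and Hspe1 (-0.06) were lower. With spike-in scaling Hspb1 and Hspe1 change direction.

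Among the lists of other protein folding genes and related genes, 0 of 56 were past 1.5-fold, against 2.34% higher and 2.46% lower of all genes. For the counts of direction below, 50.7% of all genes above the filter were higher. The list of other co-chaperones also holds related genes such as Hsf2bp. Of its 30 genes above the filter, 11 were higher and 19 lower, with a median of -0.04, or 0.14 with spike-in scaling. The largest differences were those of Hsf2bp, which encodes a protein that binds Hsf2 (80.5 against 56.3, 0.42), and Unc45b, the muscle chaperone of myosin (159 against 202, -0.32). Of 14 subunits of the chaperonin TRiC and of prefoldin, which fold actin and tubulin, 6 were higher and 8 lower, with a median of -0.04, or 0.13 with spike-in scaling and 0.0073 with the mean over probe sets. Cct3 was higher on 5 of 5 probe sets, with 2428 against 2011 on the brightest (0.27), and Pfdn2 was at 406 against 525 (-0.36). Of 12 genes of mitochondrial protein quality control, 11 were lower and 1 higher, with a median of -0.11, or -0.04 with the mean over probe sets and 0.06 with spike-in scaling. The matrix protease Lonp1 (347 against 467, -0.41) and the inner membrane protease Yme1l1 (335 against 432, -0.35) led them, although Yme1l1 was higher on 1 of 3 probe sets. Among the other lower genes Phb2 was higher on 3 of 4 probe sets, and Trap1, Afg3l1 and Afg3l2 on 1 each. Some probe sets thus went against the direction of their gene.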

How the data were processed

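Total RNA of 2 cultures was read on 1 Affymetrix array each. The authors deposited a linear intensity for every probe set, from a floor of 1 to 9861. How probes were summarised and arrays scaled, and which probe sets were detected, is not given in the sources. Genes came from the platform annotation, and all 70 members matched RefSeq by gene identifier.

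The scale used was log2(intensity + 16), with the deposited scaling kept. The brightest probe set stood for a gene, and the filter was the median of all probe sets. Computation used statsmodels 0.14.6, pandas 2.3.3 and numpy 2.4.6 under Python 3.11.15 and was tested on simulated data. The genes named are every muscle small heat shock protein, the regulators, the major chaperones, members past 1.5-fold, the extremes of each family and of each other list, and, chosen after their values were seen, members past 1.2-fold and further members that complete a family. The members and lists were chosen with earlier results of these data known. The alternatives were pseudocounts of 1 and 64, median centring, quantile and loess scaling, spike-in scaling, a filter at the 75th percentile or none, and the mean over probe sets. The 1.2-fold size and leaving out probe sets ending in _x_at or _s_at were added after seeing the data.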

Additional observations from a re-analysis of the deposited data

How the results depend on the processing

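With 1 array per group no spread between cultures is known and no array can be left out. For the same reason no paired analysis was possible. The counts of 0 genes at 2-fold, higher and lower, held under every alternative run, and none of the 16 genes past 1.2-fold changed direction. Scaling to the 45 spike-in probe sets, of which 39 were lower in shLrrfip1a, moved the most: 15 of 60 genes changed sign, 2 genes (Dnajb1 and Bag3) were higher and 0 lower at 1.5-fold, and 22 were higher and 2 lower at 1.2-fold. The medians then were 0.14 for all members, 0.18 for the muscle small heat shock proteins, 0.25 for the HSP70, HSP90, HSP110 and HSP60 families (0.08 as reported), 0.14 for J-domain genes (-0.03), 0.14 for the other co-chaperones, 0.13 for TRiC and prefoldin and 0.060 for mitochondrial quality control. With median centring the medians were -0.058 for all members, -0.076 for J-domain genes and -0.081 for the other co-chaperones. With a pseudocount of 64, 0 genes were lower at 1.5-fold, and Dnajc28 differed by -0.41. The filter at the 75th percentile left 41 members, 0 of them lower at 1.5-fold, with a median of 0.037. With the mean over probe sets the mitochondrial quality control median was -0.0405.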

Other observations

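A further 3 probe sets of the array carry the symbols of both a J-domain gene and its pseudogene and were left out of the comparison. They read 293 against 265, 125 against 103 and 29.0 against 26.6 in shLrrfip1a and control, log2 differences of 0.14, 0.25 and 0.08.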
